A study of Rattus norvegicus with 21 samples.

Results

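The genes described here encode the proteins of the cytosolic ribosome in primary rat astrocytes. They are the rows of the poly(A) gene count table whose symbol is Rpl or Rps with a number, including the stalk genes Rplp0 and Rplp1 and letter forms such as Rpl7a and Rps4x. Of 17311 rows with a gene symbol, 76 matched, and 74 held at least 30 counts over the 9 libraries and were taken as members. They comprise 45 genes of the large subunit (Rpl) and 29 of the small subunit (Rps). Rplp2 (1 count in all) and Rps9 (6 counts) fell below that minimum, and Rps6 (36 counts) was too low to be tested, so 73 members entered the test among 12096 genes.

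The study silenced TDP-43 (gene Tardbp), which binds RNA and controls its splicing, in Sprague-Dawley astrocytes grown from newborn pups and used at passages 2-3. The first group of 3 libraries received TDP-43 siRNA and ATP, the second group of 3 received TDP-43 siRNA, and the third group of 3 received scrambled siRNA as the control. Every group was transfected with a Lipofectamine lipid carrier. The labels name 1 TDP-43 siRNA condition, no group with scrambled siRNA and ATP, and no dose or duration of ATP, so an effect of ATP without knockdown cannot be separated here. Loss of TDP-43 and effects of its siRNA on other transcripts cannot be told apart. Nothing states that the 3 libraries of a group came from separate cultures or animals, and the p-values below measure the spread between libraries, which may be technical.

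A ribosome is built from ribosomal RNA and a large set of proteins, each present about once per particle, and the large subunit joins amino acids while the small subunit reads the mRNA. Ribosomal protein mRNAs are among the most abundant of a cell, and most of them begin with a 5′ terminal oligopyrimidine tract, a C followed by a run of C and T letters. Through this tract the kinase mTOR and the protein LARP1 control their translation and stability together. Ribosome assembly needs a further set of nucleolar factors, which are not part of the finished particle.

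The start of the gene is shown for 8 members, chosen after their values were seen, because the tract there is the sequence that these genes are known to share. The windows come from the RefSeq promoter table of build GRCr8, run 5′ to 3′ on the transcribed strand, and hold 10 bases before and 20 bases from the annotated start, which is the 11th letter. Capitals mark every run of a C followed by at least 4 C or T letters. The first 4 genes were among the members with the largest falls in cells given TDP-43 siRNA and ATP, and the other 4 were among those with the smallest differences.
Rpl9: aggacgttCTCTCTTTgccccatctactgc
Rps27: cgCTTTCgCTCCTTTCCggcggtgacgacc
Rps3: ttcagcggcgcgcggcagcaagatggcggt
Rpl24: tagggaggagattctctaccctataaggtg
Rpl31: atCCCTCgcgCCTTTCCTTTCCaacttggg
Rpl4: tCTTCCTTTTCCTgtgggagcagccgggta
Rpl13: cggtgcccgatCCTTTCCgctcggccgttc
Rpl6: ttacatcactagatggcgggtgaaaaggcg

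The Rpl9 window is chr14:43247580-43247609 on the plus strand, and that of Rps27 is chr2:177964587-177964616 on the minus strand. Rps3 is at chr1:163195757-163195786 (minus), Rpl24 at chr11:58128386-58128415 (minus), Rpl31 at chr9:49143101-49143130 (plus) and Rpl4 at chr8:73566467-73566496 (plus). Rpl13 is at chr19:68062504-68062533 (plus) and Rpl6 at chr12:41011671-41011700 (minus). Each window spans the annotated start of its gene's first exon. Of the 76 symbols, 60 had a single promoter entry. In 24 of these (40.0%) the annotated start was a C followed by at least 4 C or T letters, against 2.63% of all 33469 promoters. Counted from the start these runs were 5 to 12 letters long, and they may also reach upstream of it. Such a tract lay within 20 bases of the start in 53 (88.3%), against 47.8% of all promoters. The start lay on a tract in this way in 17 of 38 large subunit genes and in 7 of 22 small subunit genes. Of the windows shown, those of Rpl9, Rps27 and Rpl31 have a start on the tract by this rule. In Rpl4 the start also lies inside the marked run, near its end. Fewer than 4 C or T letters follow it there, so Rpl4 was not counted. The marked run begins at the start itself in Rpl31 and upstream of it in Rpl9 and Rps27. An annotated start need not be the base at which the mRNA begins, so a window without the tract says only that these letters are not there.

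Gene counts per library ran from 11.5 to 40.3 M. Tardbp itself, the check of the knockdown labels, stood at 24.1, 28.8 and 25.6 CPM (counts per 1000000 after TMM scaling, which sets libraries to a common level for the bulk of genes) in the group given siRNA and ATP. Levels were 29.6, 20.7 and 24.1 CPM with TDP-43 siRNA, and 179, 158 and 172 CPM with scrambled siRNA, so no library went against its label. Scrambled replicate 1 stood apart: it held 3.30 M counts on repeat elements, against 14.5 to 39.1 M in the other libraries, and 40.4% of these were on ribosomal RNA repeats, against 79.8 to 96.2%. All 8 astrocyte markers were measured. Their summed levels were 4289 to 4920 CPM with TDP-43 siRNA and ATP and 3709 to 4658 CPM with TDP-43 siRNA. With scrambled siRNA they were 4754 to 5691 CPM. Gfap was the largest part, at 2004 to 2875 CPM, and the markers did not move together. With TDP-43 siRNA, Aqp4 (log2 -1.14), Slc1a3 (-0.78) and S100b (-0.40) fell and Slc1a2 (2.14) rose. Aqp4 (-0.67), Slc1a3 (-0.59) and Slc1a2 (2.34) also passed with TDP-43 siRNA and ATP. The other astrocyte markers passed in neither comparison with scrambled siRNA. The 5 fibroblast and mural markers summed to 1559 to 1596 CPM, 1264 to 1869 CPM and 3909 to 5217 CPM in the same order of groups, with Col1a2 listed at 0 throughout. The contractile gene Acta2 held the largest part of that difference, with means of 831, 751 and 3221 CPM. Means were 653, 766 and 1008 CPM for Col1a1, 84.9, 75.6 and 134 CPM for Pdgfrb, and 2.56, 2.02 and 2.82 CPM for Dcn. The 6 microglial markers summed to 127 to 163 CPM, 125 to 156 CPM and 166 to 202 CPM in that order. They did not move together, and Aif1 held the largest part of that difference, with means of 46.2, 56.5 and 85.5 CPM. Aif1 and Tmem119 fell with TDP-43 siRNA (log2 -0.59 and -0.43) and with TDP-43 siRNA and ATP (-0.88 and -0.55). Itgam rose with TDP-43 siRNA and ATP (0.62), and Cx3cr1, Csf1r and P2ry12 passed in neither comparison with scrambled siRNA. Endothelial markers summed to at most 2.32 CPM. The 5 neuronal markers summed to 448 to 521 CPM with TDP-43 siRNA and ATP, 406 to 525 CPM with TDP-43 siRNA and 452 to 587 CPM with scrambled siRNA, nearly all of it Stmn2 at 364 to 572 CPM. Tubb3 rose with TDP-43 siRNA and ATP and with TDP-43 siRNA (log2 1.31 and 1.26, edgeR adjusted p = 0.000133 and 0.000213), whereas Rbfox3 and Snap25 averaged under 1 CPM in each group. The part of these other cell types in the values below was not tested, and in bulk RNA fewer cells of a type and less RNA per cell cannot be told apart.

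The members made up a smaller part of the mRNA in cells given TDP-43 siRNA and ATP than in every library of the other groups. They took 7.06, 6.06 and 5.97% of gene counts with TDP-43 siRNA and ATP, 8.29, 8.74 and 7.50% with TDP-43 siRNA, and 7.82, 10.7 and 9.10% with scrambled siRNA. The means were 6.36 ± 0.609%, 8.18 ± 0.632% and 9.21 ± 1.44% in that order (SD, n = 3 each). The libraries with TDP-43 siRNA overlapped those with scrambled siRNA, whereas the libraries with ATP lay below all others. This share is a percent of all gene counts, so it uses no TMM factor but depends on the counts of all other genes. No test was made of a sum over the members.

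Both subunits had lower shares, the small subunit more so. Large subunit genes took 3.84 ± 0.341% of gene counts with TDP-43 siRNA and ATP, 4.86 ± 0.312% with TDP-43 siRNA and 5.32 ± 0.925% with scrambled siRNA. Small subunit genes took 2.52 ± 0.267%, 3.31 ± 0.321% and 3.89 ± 0.523% (SD, n = 3 each). The ratio of large to small subunit counts, which does not depend on scaling, was 1.50, 1.55 and 1.54 with TDP-43 siRNA and ATP. It was 1.47, 1.42 and 1.52 with TDP-43 siRNA and 1.33, 1.43 and 1.33 with scrambled siRNA. All 3 libraries with ATP lay above all 3 scrambled libraries, and the libraries with TDP-43 siRNA overlapped both.

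**Figure D1:**
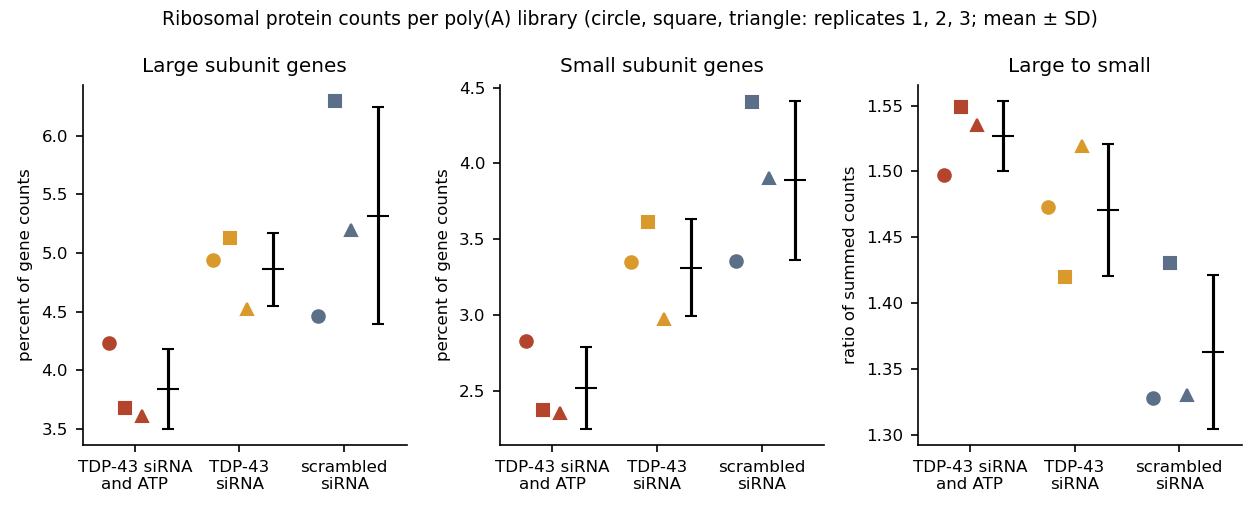
Share of gene counts (percent) on large and small subunit genes, and the ratio of their summed counts, in each of the 9 poly(A) libraries; symbols are replicates 1, 2 and 3 and bars are the mean ± SD of 3 libraries. The libraries with TDP-43 siRNA and ATP are lowest in both shares, with means of 3.84% and 2.52%, and their ratios of 1.50 to 1.55 lie above the scrambled range of 1.33 to 1.43.

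In both groups without ATP the member share followed the ribosomal RNA content of the library. Ribosomal RNA repeat counts per 1000 gene counts were 851, 466 and 1175 with TDP-43 siRNA and ATP, 1077, 1961 and 454 with TDP-43 siRNA, and 33.0, 3091 and 2380 with scrambled siRNA. With TDP-43 siRNA and with scrambled siRNA, the library with more ribosomal RNA counts also had the larger member share. The order did not hold with TDP-43 siRNA and ATP, since replicate 3 had the most ribosomal RNA counts and the smallest share. At similar ribosomal RNA counts, replicate 2 with TDP-43 siRNA and ATP (466 per 1000) had a member share of 6.06%, and replicate 3 with TDP-43 siRNA (454 per 1000) had 7.50%. The part of ribosomal RNA content in the member values was not tested.

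**Figure D2:**
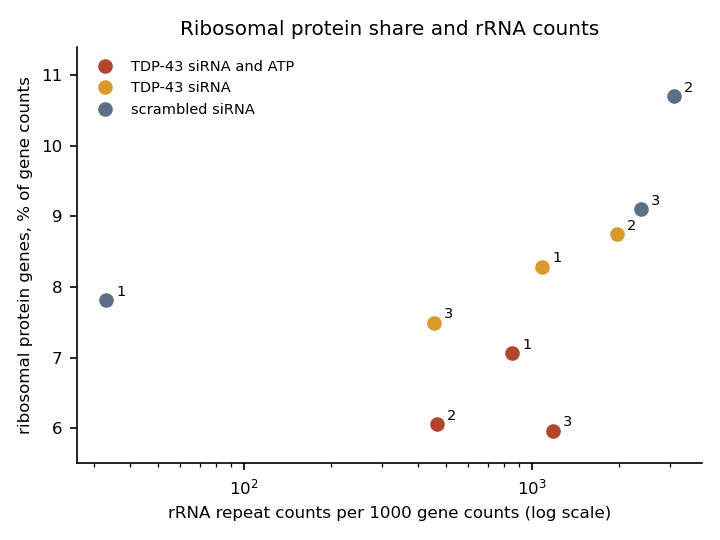
Ribosomal protein share of gene counts (percent, vertical axis) against ribosomal RNA repeat counts per 1000 gene counts (log scale, horizontal axis) in the 9 poly(A) libraries, numbered by replicate and coloured by group. Scrambled replicate 1 stands apart at 33.0 per 1000 with a share of 7.82%, and the 3 libraries with ATP are the lowest at 5.97 to 7.06%.

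The first comparison asks what TDP-43 knockdown did to these mRNAs. Ribosomal protein mRNAs were on the whole slightly lower, and a minority passed the test, led by Rpl7, Rpl9 and Rps3. Of 73 members tested, 21 fell and 0 rose (edgeR quasi-likelihood test, adjusted p under 0.05 over all genes), which is 10 of 45 large and 11 of 28 small subunit genes. Of all genes tested, 18.2% fell and 16.2% rose. The median log2 fold change of the members was -0.31, against 0.01 for all genes, and it was -0.29 for the large and -0.35 for the small subunit. In 68 of 73 members the value was below 0, against 49.0% of all genes. The libraries of both groups did not overlap for 21 members that were lower, against 20.9% of all genes. At an unadjusted p under 0.05, 0 members were higher and 36 lower, where 22.6% of all genes were lower.

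The deepest fall was that of Rpl7, a large subunit protein that binds ribosomal RNA. Its level was 1068, 1173 and 992 CPM with TDP-43 siRNA, against 1696, 2626 and 2188 CPM with scrambled siRNA. The groups did not overlap, and the log2 fold change was -1.01 (SE 0.16, edgeR adjusted p = 0.000177), so that the level with TDP-43 siRNA was 49.7% of that with scrambled siRNA. Rpl9, another large subunit protein, stood at 1259, 1433 and 993 CPM, against 1732, 2434 and 2065 CPM with scrambled siRNA (log2 -0.76, SE 0.17, edgeR adjusted p = 0.00347). Here too every library with TDP-43 siRNA lay below every scrambled library.

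Among small subunit genes the largest fall was that of Rps3, which lines the entry of the mRNA channel and also serves in DNA repair. Rps3 stood at 1434, 1444 and 1276 CPM with TDP-43 siRNA, against 1999, 2199 and 2515 CPM with scrambled siRNA (log2 -0.69, SE 0.14, edgeR adjusted p = 0.0011). Rps16, which sits near the decoding centre, stood at 1720, 1739 and 1547 CPM, against 2248, 2855 and 2717 CPM (log2 -0.64, edgeR adjusted p = 0.00254). In both genes the groups were fully separate. Rpl24 (log2 -0.66), a protein at the bridge between the subunits, Rps3a (-0.63), Rps4x (-0.63) and Rpl23 (-0.58) completed the 8 largest falls, with edgeR adjusted p of 0.00361, 0.00904, 0.0036 and 0.00942. The other 13 members that fell had log2 values of -0.55 to -0.37. Among them were Rps14, Rps15a, Rps27, Rps13, Rps25 and Rps21 of the small subunit and Rpl7a, Rpl35a, Rpl17, Rpl30, Rpl3 and Rpl14 of the large subunit.

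Other members were at the scrambled level or above it. Rpl6 stood at 1173, 1394 and 1121 CPM with TDP-43 siRNA, against 920, 1220 and 957 CPM with scrambled siRNA (log2 0.25, SE 0.15, edgeR adjusted p = 0.197). Rpl13 stood at 1261, 1329 and 1223 CPM, against 890, 1375 and 1043 CPM (log2 0.21, edgeR adjusted p = 0.307). In both the groups overlapped; these 2 genes were picked after their values were seen. Rpl38, Rpl4 and Rpl11 had log2 values of 0.00, -0.03 and -0.03.

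The unequal change can be read within a library, without any scaling. The ratio of Rpl7 to Rpl6 counts, a pair chosen for its difference, was 0.911, 0.841 and 0.885 with TDP-43 siRNA, against 1.84, 2.15 and 2.29 with scrambled siRNA. The ratio of Rps3 to Rps10, likewise chosen after the values were seen, was 1.53, 1.57 and 1.53, against 2.52, 1.88 and 2.62. Cells given TDP-43 siRNA and ATP had ratios of 0.942, 0.987 and 0.912 for Rpl7 to Rpl6 and 1.62, 1.56 and 1.55 for Rps3 to Rps10, close to those with TDP-43 siRNA. Rpl9 to Rpl4 was less even, with 0.643, 0.527 and 0.552 with TDP-43 siRNA and ATP, 0.732, 0.801 and 0.565 with TDP-43 siRNA, and 0.993, 1.16 and 1.34 with scrambled siRNA.

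**Figure D3:**
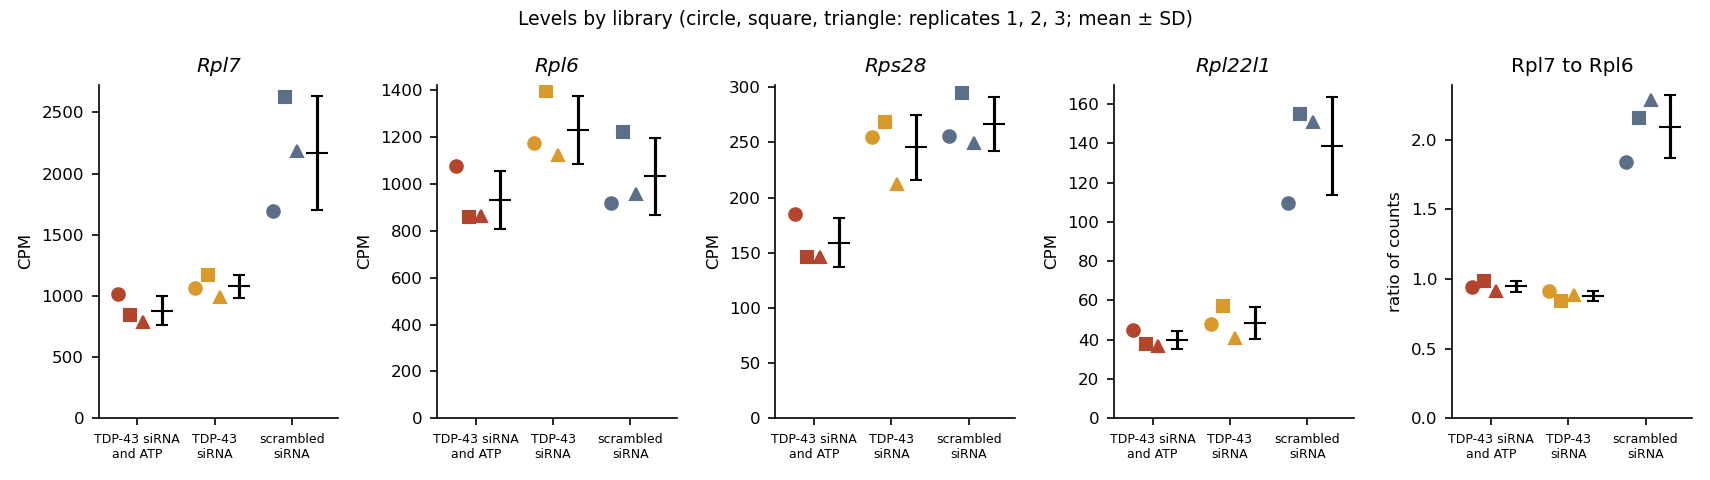
CPM of Rpl7, Rpl6, Rps28 and Rpl22l1 and the ratio of Rpl7 to Rpl6 counts in the 9 libraries, by group; symbols are replicates 1, 2 and 3 and bars the mean ± SD of 3 libraries. The ratio lies between 0.841 and 0.987 in the 6 libraries with TDP-43 siRNA and between 1.84 and 2.29 in the 3 scrambled libraries.

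The count of falls depended on single libraries and on scaling. Leaving out scrambled replicate 1, the library that stood apart, gave 48, leaving out scrambled replicate 2 gave 13, and leaving out replicate 3 of TDP-43 siRNA gave 9. DESeq2 gave 35. With total counts in place of TMM it was 9, and Rpl6 (log2 0.42) and Rpl13 (0.38) then passed as higher. They also passed as higher without scrambled replicate 2, at 0.39 and 0.40. Under total counts the median over all genes was 0.18 and that of the members -0.14.

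The second comparison sets cells given TDP-43 siRNA plus ATP against scrambled siRNA. Nearly the whole family was lower. Of 73 members tested 66 fell and 0 rose, which is 39 of 45 large and 27 of 28 small subunit genes, where 20.0% of all genes fell and 17.4% rose. The median log2 fold change was -0.75, against 0.01 for all genes, with -0.70 for the large and -0.81 for the small subunit. In 72 of 73 members the value was below 0, against 48.7% of all genes. The libraries did not overlap for 64 members that were lower and 0 that were higher, against 24.1% and 24.7% of all genes. Both comparisons with scrambled siRNA use the same 3 scrambled libraries.

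Rpl7 again led, at 1012, 846 and 786 CPM with TDP-43 siRNA and ATP, against 1696, 2626 and 2188 CPM with scrambled siRNA (log2 -1.30, SE 0.16, edgeR adjusted p = 1.78e-05). Rpl9 stood at 1077, 788 and 758 CPM, against 1732, 2434 and 2065 CPM (log2 -1.25, edgeR adjusted p = 6.11e-05). Each library with ATP lay below each scrambled library in both genes. Rps27a, which encodes ubiquitin fused to a small subunit protein, stood at 865, 520 and 511 CPM, against 960, 1915 and 1545 CPM (log2 -1.22, SE 0.24, edgeR adjusted p = 0.000896). Its replicates were the least even of the large falls, with replicate 1 of the group with ATP close to scrambled replicate 1. Rps3 (log2 -1.11), Rps27 (-1.11), Rpl24 (-1.08), Rps15a (-1.05) and Rps16 (-1.05) followed.

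The stalk recruits elongation factors to the large subunit. Its core gene Rplp0 stood at 2790, 2448 and 2300 CPM with TDP-43 siRNA and ATP, against 3407, 4495 and 3510 CPM with scrambled siRNA (log2 -0.60, edgeR adjusted p = 0.00417). Rplp1 (log2 -0.59) and Rpl12 (-0.76), the base of the stalk, fell as well, and Rplp2 had 1 count in all. In cells with TDP-43 siRNA without ATP, 0 of these 3 genes passed, with Rplp0 at 3112, 3007 and 3170 CPM (log2 -0.30, edgeR adjusted p = 0.122).

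Rpl5 and Rpl11 join the 5S ribosomal RNA and can bind the p53 regulator MDM2. Rpl5 fell to 1240, 1069 and 1065 CPM with TDP-43 siRNA and ATP, against 1488, 2191 and 1745 CPM with scrambled siRNA (log2 -0.68, edgeR adjusted p = 0.00248). Rpl11 stood at 897, 759 and 728 CPM, against 837, 1390 and 1020 CPM (log2 -0.44, edgeR adjusted p = 0.0423). The groups overlapped for Rpl11, and its call was lost without scrambled replicate 2 or 3 and without replicate 2 or 3 of the group with ATP, at log2 values of -0.22, -0.48, -0.41 and -0.38. It was also lost with total counts, at -0.22. With TDP-43 siRNA alone Rpl5 had a log2 value of -0.36 (edgeR adjusted p = 0.0818) and Rpl11 of -0.03.

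Among 8 genes whose proteins lie along the exit tunnel, through which the new peptide leaves, 1 fell with TDP-43 siRNA and 6 fell with TDP-43 siRNA and ATP. The one that fell in both was Rpl17 (log2 -0.50 with TDP-43 siRNA). Rpl39, a very short tunnel protein, fell with TDP-43 siRNA and ATP (log2 -0.70, edgeR adjusted p = 0.00316) and stood at -0.26 with TDP-43 siRNA alone (edgeR adjusted p = 0.22). Among 6 tested genes of the mRNA channel, 2 fell with TDP-43 siRNA, Rps3 and Rps14 (log2 -0.55), and 6 fell with TDP-43 siRNA and ATP. Of 19 genes mutated in Diamond-Blackfan anaemia, a human disorder of ribosome production, 3 fell with TDP-43 siRNA and 17 with TDP-43 siRNA and ATP. Over all genes tested 18.2% fell with TDP-43 siRNA and 20.0% with TDP-43 siRNA and ATP, so that the counts of the exit tunnel and Diamond-Blackfan genes with TDP-43 siRNA do not exceed the share over all genes.

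Among the most counted members, Rps2 had a log2 value of -0.22 with TDP-43 siRNA (edgeR adjusted p = 0.307) and fell by 0.56 on the log2 scale with TDP-43 siRNA and ATP (edgeR adjusted p = 0.0116). Rpl41, the shortest ribosomal protein, had -0.22 and -0.65 (edgeR adjusted p = 0.359 and 0.008). Rpl7a, which helps shape the early large subunit, was low for a member at 33.4 to 78.5 CPM and fell in both comparisons (log2 -0.53 with TDP-43 siRNA, and -0.88 with TDP-43 siRNA and ATP). The 7 members that did not pass with TDP-43 siRNA and ATP were Rpl4, Rpl6, Rpl8, Rpl13, Rpl31, Rpl37a and Rps19. Of these, Rpl37a and Rps19 stayed at or below 1.38 CPM in every library. With Rps6, Rps9 and Rplp2 they are genes of core proteins that were counted close to 0. The sources used here do not say how reads shared with near-identical pseudogene copies were counted, which leaves the levels of single members uncertain.

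**Figure D4:**
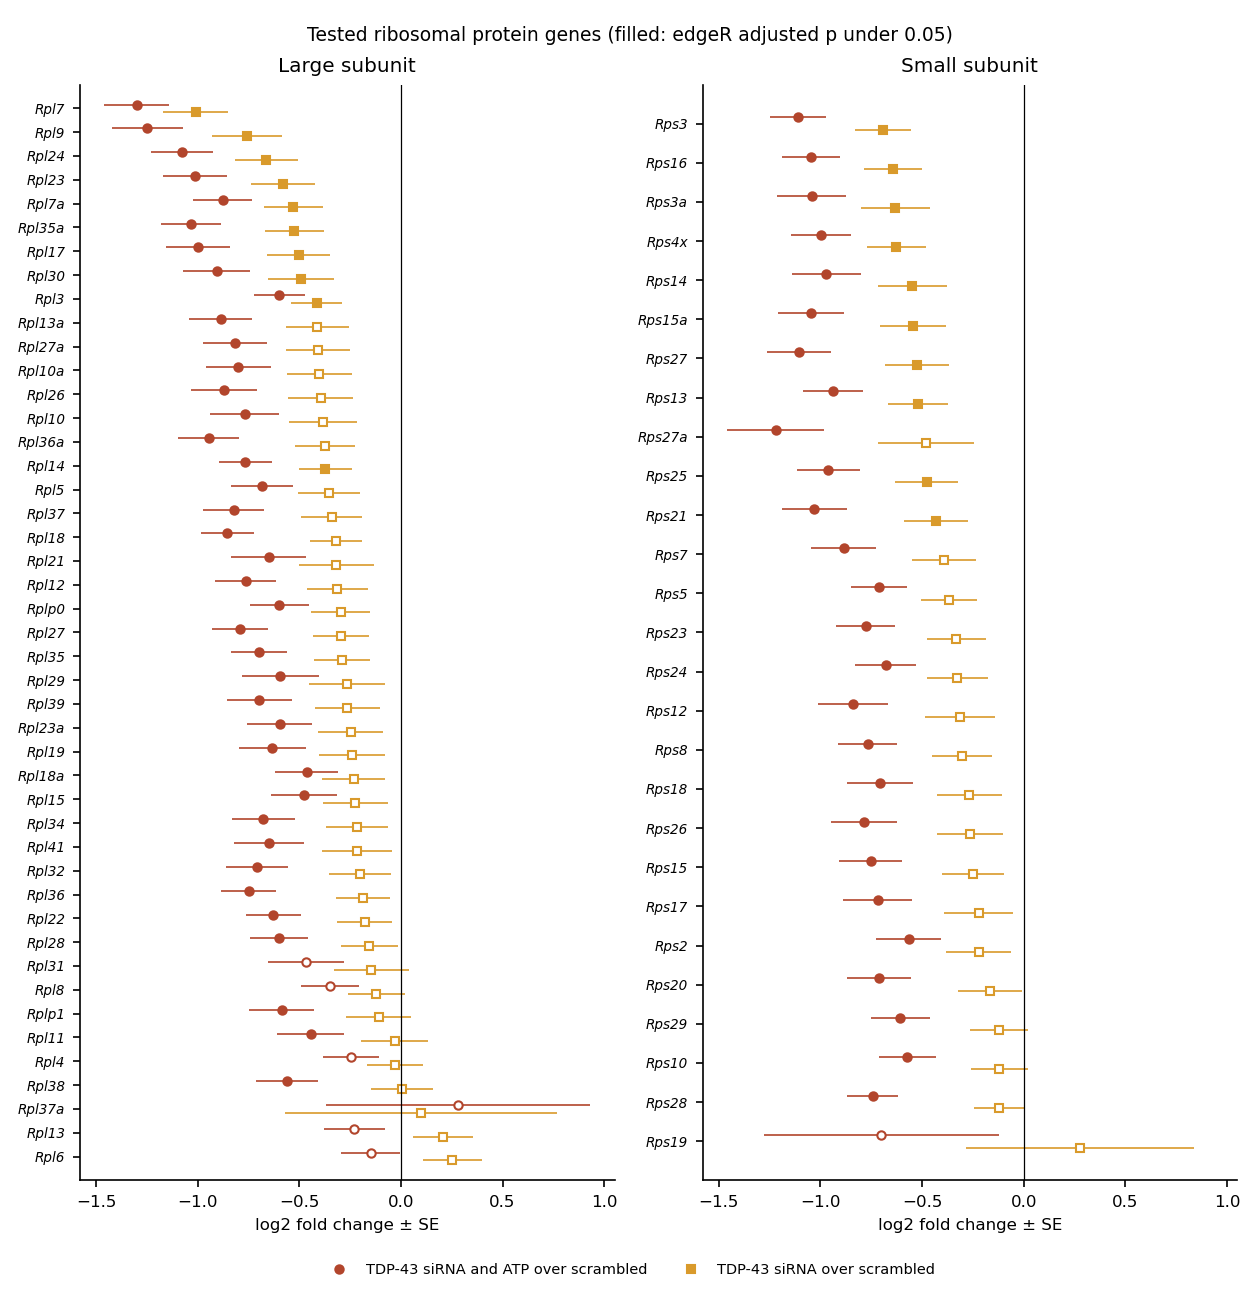
Log2 fold change ± SE of the tested members, all but 1 of which are drawn, against scrambled siRNA, for TDP-43 siRNA and ATP (circles) and TDP-43 siRNA (squares), with large subunit genes on the left and small subunit genes on the right, ordered by the value with TDP-43 siRNA. Filled symbols passed the edgeR test, which 66 of all 73 members did with ATP and 21 without it.

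The third comparison sets TDP-43 siRNA and ATP against TDP-43 siRNA alone and so asks what ATP added after knockdown. Nearly all members had values below 0 in a narrow band, but only Rps28 passed the adjusted test. Rps28, a small subunit protein near the mRNA exit, stood at 185, 146 and 147 CPM with TDP-43 siRNA and ATP, against 255, 269 and 213 CPM with TDP-43 siRNA (log2 -0.62, SE 0.12, edgeR adjusted p = 0.0233). Its scrambled libraries held 256, 295 and 250 CPM. The groups with and without ATP did not overlap, and the groups with TDP-43 siRNA and with scrambled siRNA did (log2 -0.12, edgeR adjusted p = 0.484).

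Of 73 members 0 rose and 1 fell, where 0.141% of all genes fell and 0.926% rose. At an unadjusted p under 0.05, 61 members were lower and 0 higher, against 5.94% and 6.65% of all genes. The libraries of both groups did not overlap for 57 members that were lower, against 12.7% of all genes. The median log2 value was -0.43, with -0.42 for the large and -0.48 for the small subunit, against -0.00 for all genes. The value was below 0 in 72 of 73 members, against 50.1% of all genes. Of 71 members with at least 5 CPM on average, all 71 were below 0.

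The members differed less among themselves here than in the comparisons with scrambled siRNA. Over those 71 genes the log2 values with TDP-43 siRNA and ATP against TDP-43 siRNA ran from -0.74 to -0.18, with an SD across genes of 0.0994. With TDP-43 siRNA against scrambled siRNA they ran from -1.01 to 0.25 (SD 0.209), and with TDP-43 siRNA plus ATP against scrambled siRNA from -1.30 to -0.15 (SD 0.232). Of genes that stood apart with TDP-43 siRNA, Rpl7 had -0.29, Rpl6 -0.40, Rpl13 -0.43 and Rps3 -0.42 here. The 71 genes, which include them, had a median of -0.43 and quartiles of -0.49 and -0.39. These are descriptions across genes, which are not independent replicates, and the comparisons share libraries.

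The count of calls depended on the fit. With only the 6 libraries compared in the edgeR fit, 54 members fell, among 817 genes called in all, 386 of them lower. DESeq2 on all 9 libraries gave 35 members lower, among 436 genes called, 166 of them lower. The main edgeR fit of all 9 libraries, which also takes its spread from the scrambled libraries, called 129 genes, 17 of them lower. Rps28 no longer passed when either TDP-43 siRNA replicate 1 or 2, or replicate 2 or 3 of the group with ATP, was left out.

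Members with and without an annotated start on the tract had similar medians. Most of those without such a start still had a tract within 20 bases of it, as did 53 of the 60 symbols with a single promoter entry. The split therefore follows the annotated start and does not separate genes with a tract from genes without one. With TDP-43 siRNA against scrambled siRNA, the 24 tested members whose annotated start lay on a tract had a median log2 value of -0.29, and the 33 without it -0.33. In the comparison of the group with ATP and scrambled siRNA both medians were -0.76. Among 8719 other tested genes, the 211 (2.42%) with such a tract had a median of 0.04 in that comparison and the rest 0.03. In the comparison of TDP-43 siRNA and ATP with TDP-43 siRNA, members had -0.44 with a start on the tract and -0.43 without it. These medians carry no test, and among the windows shown Rpl9 and Rpl31 both have a start on the tract, with log2 values of -1.25 and -0.47 in cells with ATP.

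Ribosomal protein genes that the symbol rule leaves out include Rpsa, Fau and Gnb2l1, the last encoding RACK1. Each of them fell with TDP-43 siRNA and ATP, with log2 values against scrambled siRNA of -0.52 for Rpsa, -0.81 for Fau and -0.63 for Gnb2l1. With TDP-43 siRNA alone Gnb2l1 passed (log2 -0.43), and Rpsa (-0.20) and Fau (-0.29) did not. The call of Gnb2l1 was lost with total counts, the replicate block or only the 6 compared libraries, and without scrambled replicate 2 or any 1 library with TDP-43 siRNA.

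Paralogs of ribosomal proteins did not move as one. Rpl22l1, which can replace Rpl22 in the ribosome and binds RNA outside it, had the deepest fall of the ribosomal protein and paralog genes. It stood at 45.0, 37.8 and 36.7 CPM with TDP-43 siRNA and ATP, at 47.8, 57.2 and 40.8 CPM with TDP-43 siRNA, and at 110, 155 and 151 CPM with scrambled siRNA. Both groups with TDP-43 siRNA lay below all scrambled libraries, and they overlapped each other. The log2 fold changes against scrambled siRNA were -1.79 with TDP-43 siRNA and ATP (edgeR adjusted p = 4.21e-07) and -1.51 with TDP-43 siRNA (edgeR adjusted p = 2.17e-06). Rpl22 itself had -0.63 and -0.18 in the same order, and the second did not pass (edgeR adjusted p = 0.331). Rpl36al fell in both (log2 -0.75 with TDP-43 siRNA and ATP, and -0.39 with TDP-43 siRNA). Rps27l, a p53 target, had -0.32 and 0.17 and did not pass (edgeR adjusted p = 0.0972 and 0.386). Rps4y2, Rpl39l and Rpl3l were at or below 4.06 CPM on average in each group.

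Translation elongation genes and other mRNAs with a known 5′ tract were lower in part. Of 14 tested, 6 fell and 0 rose with TDP-43 siRNA, and 8 fell and 0 rose with TDP-43 siRNA and ATP. Eef1b2, an exchange factor of elongation factor 1, fell by 0.83 and 1.24 on the log2 scale in that order. Eef1g fell by 0.55 and 0.62, Eef2, which moves the ribosome along the mRNA, by 0.46 and 0.53, and the growth-related gene Tpt1 by 0.44 and 0.68. Of all genes tested 18.2% fell with TDP-43 siRNA and 20.0% with TDP-43 siRNA and ATP. With TDP-43 siRNA, total counts left 2 lower and 2 higher, only the 6 compared libraries left 2 lower, and leaving out replicate 1 or 3 with TDP-43 siRNA or scrambled replicate 2 left 2, 3 and 3 lower. Between the groups with and without ATP, 0 of the 14 passed the edgeR test, 3 were lower and 0 higher at an unadjusted p under 0.05, and the median was -0.19.

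The factors that assemble ribosomes rose in part, unlike the ribosomal proteins. Of 54 tested ribosome biogenesis genes, 24 rose and 0 fell with TDP-43 siRNA against scrambled siRNA, with a median log2 value of 0.30. In cells also given ATP 23 rose and 2 fell, Nob1 (log2 -0.34) and Emg1 (-0.36), with a median of 0.17. Utp15, which acts on the early small subunit RNA, stood at 25.6 ± 0.668 CPM with TDP-43 siRNA and ATP, 26.6 ± 3.68 CPM with TDP-43 siRNA and 13.3 ± 1.43 CPM with scrambled siRNA (SD, n = 3 each). It rose by 0.98 with TDP-43 siRNA (edgeR adjusted p = 6.63e-05) and by 0.93 with TDP-43 siRNA and ATP. Rrp8 (log2 0.80), Utp20 (0.67) and the helicase gene Ddx21 (0.66) also rose with TDP-43 siRNA. Of all genes tested 16.2% rose with TDP-43 siRNA and 17.4% with TDP-43 siRNA and ATP. Leaving out 1 library gave 19 to 31 higher with TDP-43 siRNA, and total counts gave 41. For TDP-43 siRNA and ATP, leaving out replicate 1, 2 or 3 of that group gave 15, 16 and 14 higher, and total counts gave 36 higher and 0 lower. In the comparison of TDP-43 siRNA and ATP with TDP-43 siRNA, 0 of 54 passed and the median was -0.06.

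Of 13 genes of RNA polymerase I, which transcribes ribosomal RNA, 4 rose and 1 fell with TDP-43 siRNA, and 4 rose and 2 fell with TDP-43 siRNA and ATP. Of 18 genes of mTOR signalling and tract-binding control, 7 rose and 2 fell with TDP-43 siRNA, and 7 rose and 1 fell with TDP-43 siRNA and ATP. Tsc1, an inhibitor of mTOR complex 1, rose by 0.97 and 1.04 on the log2 scale in that order. The growth regulator gene Myc rose by 0.67 and 0.75, and Mlst8, an mTOR subunit, rose by 0.64 and 0.56. Cnbp, which binds pyrimidine tract mRNAs, fell by 0.40 and 0.32, and Larp1b had -0.72 and -0.23, of which only the first passed. Of 32 initiation factor genes, 5 rose and 2 fell with TDP-43 siRNA, and 5 rose and 7 fell with TDP-43 siRNA and ATP. Eif4a2 fell by 0.90 and 0.69. With total counts 8 initiation factor genes rose and 1 fell in each of these comparisons. Over all genes 16.2% rose and 18.2% fell with TDP-43 siRNA, and 17.4% rose and 20.0% fell with TDP-43 siRNA and ATP, so the shares of initiation factor genes that rose are below those over all genes. Of 11 ribosome rescue genes 2 rose and 0 fell with TDP-43 siRNA, and 3 rose and 0 fell with TDP-43 siRNA and ATP, while the 2 tested snoRNA host genes did not pass in either. With total counts 10 and 11 mTOR list genes and 7 and 8 RNA polymerase I genes rose in the 2 comparisons. The mTOR list had 4 higher without replicate 1 of TDP-43 siRNA, and 4 without replicate 1 or 3 of the group with ATP. RNA polymerase I had 2 higher without any 1 library of TDP-43 siRNA, and 1 with only the 6 compared libraries. In the comparison of TDP-43 siRNA and ATP with TDP-43 siRNA, 0 genes of these 5 lists passed.

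Among the large complexes most like the ribosome in being built of many subunits, lower values with ATP were also seen. Of 66 tested mitochondrial ribosomal protein genes 37 fell and 1 rose with TDP-43 siRNA plus ATP against scrambled siRNA (median log2 -0.40). Of 66 nuclear respiratory chain genes 52 fell and 1 rose (-0.53), and of 38 proteasome genes 16 fell and 3 rose (-0.23). With TDP-43 siRNA alone the counts were 16 lower and 3 higher (-0.14), 9 lower and 1 higher (-0.23), and 7 lower and 4 higher (-0.11). Of all genes tested, 20.0% fell and 17.4% rose with TDP-43 siRNA and ATP, and 18.2% fell and 16.2% rose with TDP-43 siRNA. Leaving out scrambled replicate 1 gave 28, 34 and 12 lower with TDP-43 siRNA, and leaving out any other 1 library gave 11 to 15, 5 to 7 and 3 to 5 lower. Between the groups with and without ATP the medians were -0.23, -0.31 and -0.14, and 0 genes of these lists passed. With only the 6 compared libraries in the fit, 20 of 66, 33 of 66 and 8 of 38 fell, and with DESeq2 6, 6 and 5, so that the lower values there were not confined to the cytosolic ribosome. The cytosolic members had the lowest median of these 4 lists in all 3 comparisons, but the difference between lists was not tested. With total counts in place of TMM, the medians with TDP-43 siRNA turned to 0.03 for the mitochondrial ribosome (10 higher and 7 lower) and 0.06 for the proteasome (6 higher and 2 lower), and the respiratory chain had 3 higher and 4 lower. With TDP-43 siRNA and ATP total counts gave 18 lower and 7 higher for the mitochondrial ribosome, 33 and 2 for the respiratory chain, and 11 and 5 for the proteasome.

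**Figure D5:**
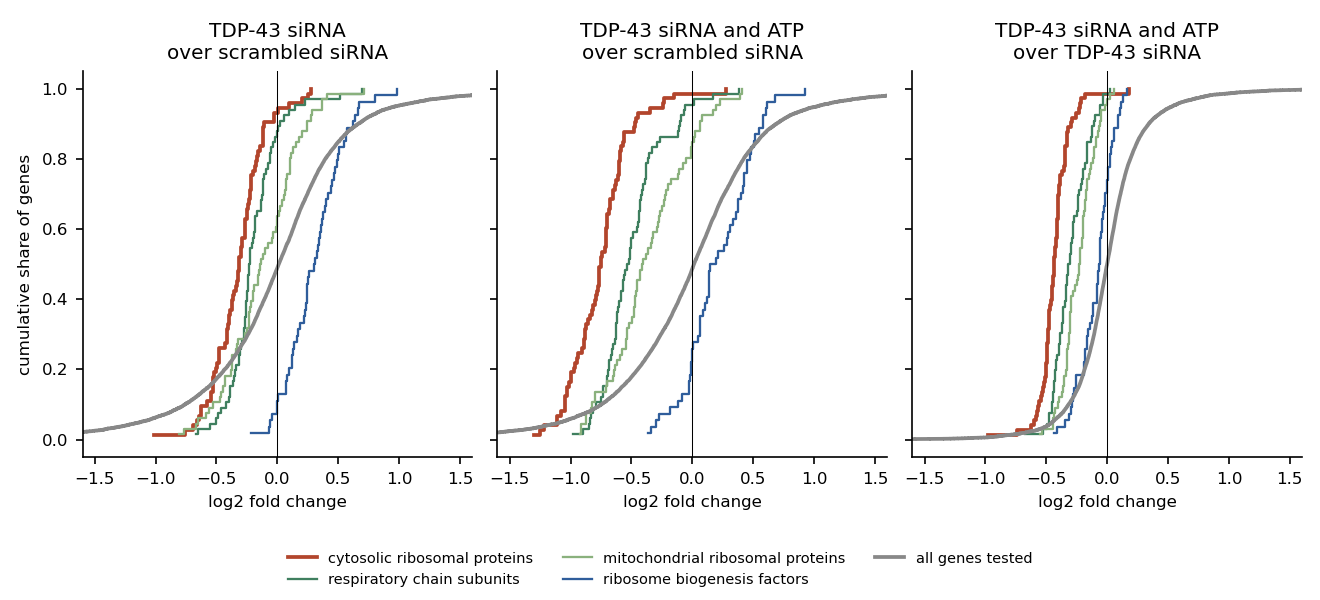
Cumulative share of genes (vertical axis) by log2 fold change (horizontal axis) for the cytosolic ribosomal protein genes, respiratory chain subunits, mitochondrial ribosomal proteins, ribosome biogenesis factors and all 12096 genes tested, in the 3 comparisons. The curve of the cytosolic ribosomal proteins lies furthest left at its middle, with medians of -0.31, -0.75 and -0.43, and that of the biogenesis factors lies to the right of all genes with TDP-43 siRNA, at 0.30.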

How the data were processed

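The authors deposited raw read counts per gene symbol in 9 poly(A) libraries (3 per group) and raw counts per repeat element, of which the ribosomal RNA repeats of the poly(A) libraries were used; the 12 libraries of an immunoprecipitation experiment were not used here. Per the submitters' processing notes, Bowtie2, TopHat2, Trimmomatic and DESeq2 were used with the rn6 build, without versions or roles. Neither the counting program nor its treatment of strand and of reads with several matches is stated in the sources used here. All columns matched a sample label. A set of 26 rows whose symbols had turned into dates was left out (0.286 to 0.331% of counts). Each library was taken as 1 replicate. Libraries of a group differed by more than sampling noise, with a chi-square statistic of 11.0 or more per degree of freedom. It ran from 11.0 to 11.9 with TDP-43 siRNA and ATP and from 14.2 to 26.0 with TDP-43 siRNA. Between scrambled replicates 2 and 3 it was 21.7, and scrambled replicate 1 stood at 63.0 and 58.5 against them. The statistic also depends on depth, which differed between libraries, and it cannot tell separate cultures from technical spread. The test used 1 spread per gene for all 9 libraries and so does not follow differences in spread between groups.

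Counts were tested with edgeR 4.0.16 in R 4.3.3 (filterByExpr, TMM, glmQLFit and glmQLFTest), with 1 mean per group, a spread shared by all 9 libraries, 6 residual degrees of freedom, and Benjamini-Hochberg adjustment over 12096 genes at a threshold of 0.05. Each standard error is the size of the log2 fold change over the root of its F value. CPM use TMM-scaled totals. Alternatives were DESeq2 1.42.0, other scalings and filters, only the compared libraries, the replicate number as a block, and each of the compared libraries left out in turn. On simulated counts for TDP-43 siRNA against scrambled siRNA (11992 genes), the test recovered 55% of 100 genes changed 1.5-fold and 99% of 100 changed 2-fold, and called 8 unchanged genes. The changed genes were picked only from those with a mean of at least 5 CPM. The simulation drew each gene on its own, with the same spread in every group. Its figures therefore do not cover groups of unequal spread or genes that vary together between libraries, and its recovery does not cover genes of lower level.

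The members, gene lists and tests were chosen with earlier results of these data known. Genes named are the 8 largest changes per comparison that passed, the members with the 3 smallest p, the 5 highest and 5 lowest by CPM, 9 members of known role, genes outside the symbol rule and paralogs, and up to 4 per other list; single values of some genes are not reported here. All 74 members had a symbol in the RefSeq gene table of GRCr8, which was used for names, and start windows came from the RefSeq promoter table of that build. A planned description by protein length was not analysed here.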

Additional observations from a re-analysis of the deposited data

How the results depend on the processing

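Medians of the members kept their sign in every fit tried. With TDP-43 siRNA against scrambled siRNA, total-count scaling gave 2 members higher and 9 lower, and DESeq2 35 lower, against 0 and 21. Leaving out 1 library gave 0 to 2 higher, 9 to 48 lower, medians of -0.43 to -0.18 and 3087 to 4431 genes called in all, against 4154. With TDP-43 siRNA plus ATP against scrambled siRNA, total counts gave a median of -0.53, and leaving out 1 library gave 0 higher, 59 to 69 lower, medians of -0.86 to -0.62 and 3240 to 4783 genes, against 4521. Under total counts the median over all genes was 0.18 and 0.24 in these comparisons, where 70.5% and 74.5% of calls were then higher, against 47.1% and 46.6%.

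With TDP-43 siRNA and ATP against TDP-43 siRNA, 129 genes were called. DESeq2 called 436, the replicate block 68 and the 6 compared libraries 817. Of the members 35 were lower with DESeq2, 6 with no low-count filter and 54 with the 6 compared libraries. Leaving out 1 of the 6 compared libraries gave 21 to 53 genes, 0 higher and 0 to 1 lower members, and medians of -0.54 to -0.37. No scrambled library was left out for this comparison, although the scrambled libraries enter its spread. The replicate block gave 19, 65 and 1 lower members in the 3 comparisons. Replicates with the same number did not deviate together (correlations of -0.152 to 0.118), so the numbers are taken not to pair the libraries.

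Without the 100 largest other genes in the total, member shares were 7.88% with TDP-43 siRNA and ATP, 10.2% with TDP-43 siRNA and 11.99% with scrambled siRNA. With the 4 related genes added, the share with TDP-43 siRNA was 8.86%. Leaving out 1 library gave 6.01 to 6.56%, 7.89 to 8.52% and 8.46 to 9.90%. For members of at least 5 CPM, a limit chosen after seeing the data, the medians were -0.32, -0.76 and -0.43. The planned length classes were not run. The cause of these shifts was not tested, except that fits without a library rest on fewer samples.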
